A study of Mus musculus with 20 samples.

Results

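The adhesion G protein-coupled receptors were examined as a family in RNA-seq of the mouse cochlea. Members were all genes whose symbol starts with Adgr or Celsr, which gave 29 of the 24411 genes in the tables. These were 3 ADGRA, 3 ADGRB, 3 Celsr (ADGRC), 1 ADGRD, 3 ADGRE, 5 ADGRF, 6 ADGRG, 4 ADGRL genes and *Adgrv1*. The targeted gene of the study, *Adgrb1*, which encodes BAI1, is one of them.

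Each library was a pool of 4 mice according to the methods (3 to 4 in the supplement), from the sensory epithelium and spiral ganglion of the apical coil. Heterozygous Bai1tm2b/+ mice (Het) were the controls and were compared with homozygous Bai1tm2b/tm2b littermates (Homo) at postnatal day 7 (P7) and day 22 (P22), all on a C57BL/6N background, which carries the Cdh23ahl allele. Both genotypes therefore carry the tm2b allele, which is constitutive, lacks exons 3 and 4 of *Adgrb1* and contains a lacZ cassette, and there was no wild-type group. The libraries form 3 sets: P22 counts (3 Het and 3 Homo), P7 counts (replicates 5 to 7 of each genotype) and P7 values that behave as TPM (levels scaled for transcript length and library total) rounded to whole numbers (replicates 1 to 4 of each genotype). The labels do not say whether libraries came from separate litters, so p values measure the spread between these pools.

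Adhesion G protein-coupled receptors join a long extracellular region to a membrane-spanning receptor core. In most of them the extracellular region is cut from the core by the receptor itself and stays attached, and binding of a partner on another cell or in the matrix can expose a tethered agonist that activates G proteins. In the nervous system BAI receptors and latrophilins act at synapses, in epithelia the Celsr cadherins set planar cell polarity, and in hair cells *Adgrv1* forms the ankle links of the developing stereocilia. *Adgrg6* is required for Schwann cells to form myelin.

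The exons removed by the allele are shown because they define the groups. *Adgrb1* lies on the plus strand of chromosome 15, from 74516195 to 74589465 in GRCm38 (mm10), and GENCODE gives it 12 transcripts, of which 3 contain exons 3 and 4 and 9 start after exon 4. Both exons are wholly coding in the long transcript of 31 exons, and together they span 273 nt, a multiple of 3. According to the paper, the lacZ cassette of the allele carries a splice acceptor that overrides normal splicing. The paper also reports that reads were lost in Homo from the removed exons up to the start of the short isoform. The length of the removed exons is therefore no sign that the rest of the long transcript is made in frame in Homo. Exon 3 runs over chr15:74538298-74538459 (162 bp) and exon 4 over chr15:74539203-74539313 (111 bp). Capitals mark the 3 in-frame TGG codons for tryptophan in exon 3. Closely spaced tryptophans are typical of thrombospondin type 1 repeats, the modules that fill the BAI1 extracellular region.
Adgrb1 exon 3: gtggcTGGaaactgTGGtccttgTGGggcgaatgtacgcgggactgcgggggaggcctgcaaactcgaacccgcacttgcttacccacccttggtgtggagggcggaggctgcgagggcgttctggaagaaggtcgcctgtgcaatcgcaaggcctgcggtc
Adgrb1 exon 4: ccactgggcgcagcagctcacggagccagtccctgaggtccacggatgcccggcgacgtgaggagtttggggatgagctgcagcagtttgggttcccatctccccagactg
The tables hold 1 value per gene, which sums transcripts with and without these exons, so the level of *Adgrb1* below is no direct measure of the deletion.

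The count libraries held between 31108551 and 58807173 estimated counts. Marker genes of spiral ganglion and other neurons, hair cells and supporting cells were detected in all groups, with no marker of these lists at 0 throughout a group. The summed level of the 18 neuron markers was 1597 to 3896 CPM (counts in proportion to the scaled library total) at P7 and 16163 to 24341 CPM at P22, and that of the 16 supporting cell markers was 8224 to 14698 CPM at P7 and 2917 to 3661 CPM at P22. At P22 the sums of 7 of 13 marker lists did not overlap between genotypes, and of single genes tested 33.7% did not overlap. The neuron markers summed to 21974 to 24341 CPM in Het and 16163 to 18124 CPM in Homo, and the bone markers to 2934 to 3494 and 2322 to 2582 CPM. The other 5 were higher in Homo: the supporting cell markers with 2917 to 3285 CPM in Het and 3491 to 3661 CPM in Homo, the 17 hair cell markers with 605 to 652 and 765 to 886 CPM, the 14 markers of brain glia with 884 to 1026 and 1166 to 1823 CPM, the macrophage markers with 175 to 206 and 208 to 265 CPM, and the brain neuron markers with 129 to 143 and 150 to 173 CPM. The brain glia markers differed in 1 direction throughout, with 14 of 14 differences positive and a median of 0.55 on the log2 scale. Of them 6 were called higher, against 1.74% of all genes tested. The list shares *Pdgfra* with the fibrocyte and mesenchyme list and *Cspg4* with the endothelial and pericyte list, so it is not specific to brain. Of the 11 brain neuron markers tested, 6 differences were positive and 5 negative, with 0 called. The macrophage markers were likewise all positive (13 of 13, median 0.31, 1 called higher). Of the hair cell markers 16 of 17 were positive (median 0.44, 4 called higher). Of the supporting cell markers 13 of 16 were positive (median 0.25, 4 called higher and 1 lower). In pooled tissue, fewer cells of a type, less RNA per cell and a change of the marker genes themselves cannot be told apart. The paper reports that the number of afferent fibers in adult mice was not significantly different between genotypes.

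Levels were first compared between members, per length, as CPM per kb of the longest annotated coding transcript. At P22 the highest member was the latrophilin *Adgrl1* (36.4 ± 4.44 CPM per kb, SD, n = 6), a synaptic receptor for teneurins and FLRT proteins, followed by *Adgrb1* (20.9 ± 4.91) and *Adgra3* (16.2 ± 1.71), an orphan receptor of the GPR124 group. At P7 the highest was *Adgra3* (49 ± 4.53), followed by *Adgrl1* (27.8 ± 1.06) and *Adgra2* (26.5 ± 3.25), the GPR124 receptor that works with RECK in WNT7 signaling. At P7 the members in places 2 and 3 did not differ beyond their spread. At P22 their order depended on genotype. In Het, *Adgrb1* stood at 25.3 ± 1.28 CPM per kb (SD, n = 3) and *Adgra3* at 15.6 ± 1.68, with no overlap, and in Homo they stood at 16.5 ± 0.405 and 16.8 ± 1.85 and overlapped. Both genotypes were divided by the length of the long *Adgrb1* transcript, whereas the paper reports loss of the long isoform in Homo. The level and rank of *Adgrb1* in Homo depend on that length. Over both genotypes *Adgrb1* ranked 14 of 29 at P7 and 2 of 29 at P22, and in the Homo libraries at P22 it ranked 3. The ranks of the 29 genes at the 2 ages were correlated (Spearman's rho 0.863 across genes, which share libraries and lengths). This rho includes members near 0 counts, which held ranks 22 to 29 at both ages. Other ranks moved, such as *Celsr1* from 10 at P7 to 20 at P22 and *Celsr3* from 19 to 11. At P7 the per-length order in counts was close to the order in rounded TPM (rho 0.976).

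At the low end, *Adgre4*, *Adgrf1*, *Adgrf2*, *Adgrf3*, *Adgrf4*, *Adgrg3*, *Adgrg5* and *Adgrg7* had between 0 and 72 counts in each of the 12 count libraries. *Adgrf3* had 0 counts in all 6 P22 libraries, and 3 counts, the limit that a count of 0 allows, correspond to 0.0743 to 0.084 CPM of the total at this depth (counting error only). The other 21 members had 58 counts or more in every library.

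**Figure D1:**
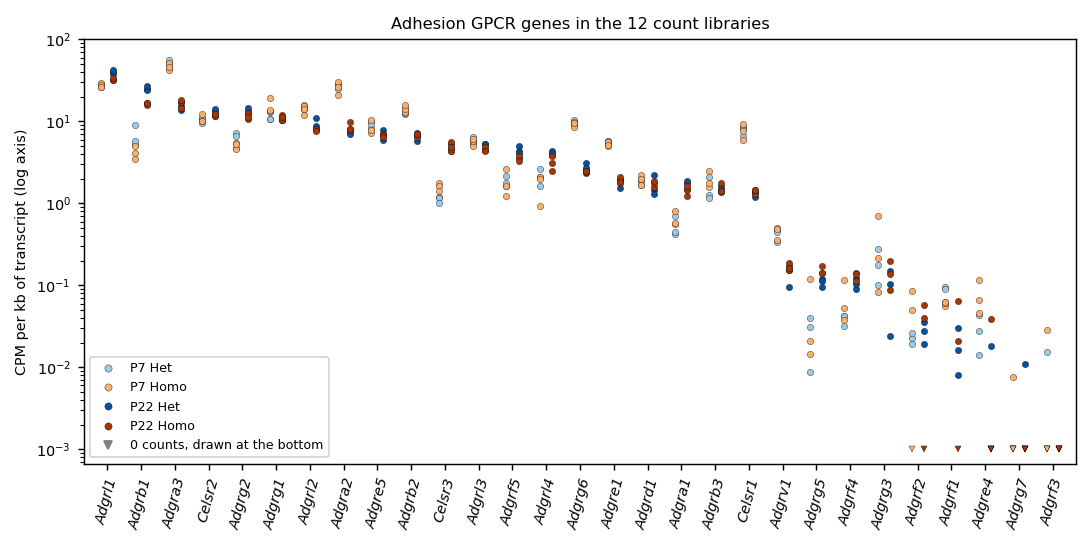
Level of each of the 29 members in the 12 count libraries, in CPM per kb of transcript on a log axis, ordered by the mean at P22. Each point is a library, P7 to the left and P22 to the right of each gene, and triangles mark 0 counts. *Adgrl1* is highest at P22 and *Adgra3* at P7.

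The first comparison asked whether the targeted gene and its relatives differed between genotypes at P22. *Adgrb1* measured 154, 152 and 167 CPM in the Het libraries and 103, 100 and 105 CPM in the Homo libraries. The groups lay apart, with every Homo library below every Het library. The level in Homo was 1.53-fold lower (log2 fold change −0.61, SE 0.0585, adjusted p = 0.000602, edgeR's quasi-likelihood test). It was the single member called among the 24 that passed the filter on low counts. A call required an adjusted p under 0.05 over all genes tested, a log2 fold change beyond 0.5 in either direction and an SE under 0.5, and 3.15% of all 15443 genes tested met it in either direction (1.41% lower). The members called, 1 of 24, are a share close to that background.

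The other BAI receptors are encoded by *Adgrb2* and *Adgrb3*. *Adgrb2* measured 34.4, 30.2 and 37.4 CPM in Het and 34.7, 33.4 and 35.8 CPM in Homo at P22. *Adgrb3*, the receptor for C1q-like proteins, measured 8.25, 7.45 and 8.92 CPM in Het and 7.76, 9.66 and 7.62 CPM in Homo. In both genes the genotypes overlapped. The differences were 0.03 on the log2 scale for each, with SE 0.0859 for *Adgrb2* and 0.137 for *Adgrb3* (adjusted p = 0.834 and 0.905). Among the summed CPM of the 3 BAI genes, *Adgrb1* accounted for 78.3% to 80.2% in Het and 69.9% to 70.8% in Homo libraries.

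A pair of further members had an adjusted p under 0.05 at P22 without reaching the fold limit, so that 3 of 24 members met the adjusted p alone, against 12.3% of all genes. *Adgrl1* measured 327, 308 and 350 CPM in Het and 261, 264 and 276 CPM in Homo (log2 fold change −0.29, SE 0.0615, adjusted p = 0.0148). *Adgrf5*, a receptor of endothelial cells and of lung epithelium, measured 43, 37.3 and 35.4 CPM in Het and 30.2, 31.9 and 27.9 CPM in Homo (−0.35, SE 0.0883, adjusted p = 0.0281). Neither gene had overlapping genotypes. With a library left out, the adjusted p of edgeR ranged from 0.00753 to 0.0671 for *Adgrl1* and from 0.0315 to 0.117 for *Adgrf5*. With the trend on length and GC content removed, the difference was −0.21 for *Adgrl1* (adjusted p = 0.0194) and −0.28 for *Adgrf5* (adjusted p = 0.0637). *Adgrb1* then stood at −0.52 and stayed called. Up to 15.6% of the exon bases of *Adgrl1* overlap genes on the opposite strand, and whether the counting used strand is not given in the sources used here.

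The size of these differences depended on the scaling. The neuron markers used for it themselves differed between genotypes at P22, with 16 of 18 differences negative and a median of −0.28. When the P22 libraries were scaled to the neuron markers, the difference was −0.36 for *Adgrb1* (SE 0.0618, adjusted p = 0.00476), −0.04 for *Adgrl1* (adjusted p = 0.603) and −0.11 for *Adgrf5* (adjusted p = 0.421), and 0 members were called, against 11.5% of all genes (11.1% higher and 0.382% lower). Scaled to the hair cell markers, 10 of the 24 members were called lower, against 32% of all genes under this scaling, and *Adgrb1* stood at −1.04. These scalings put the median of all genes at 0.26 and −0.42 on the log2 scale, beside 0.01 in the main fit. They shift all genes together and so show nothing particular to these members. The 13 endothelial and pericyte markers summed to 535 to 658 CPM in Het and 508 to 611 CPM in Homo, ranges that overlap. Marker by marker, 10 differences were negative and 3 positive, with 0 called and a median of −0.15 beside 0.01 for all genes. The part of cell composition in the result was not tested further.

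Over all 24 members tested at P22, 13 had a positive and 11 a negative difference (52.4% of all genes had a positive one), with a median of 0.03 beside 0.01 for all genes. Genotypes did not overlap in 7 members (*Adgrb1*, *Adgrf5*, *Adgrg5*, *Adgrg6*, *Adgrl1*, *Adgrl4* and *Celsr2*), against 33.7% of all genes tested. *Adgrl4*, the endothelial receptor ELTD1, came nearest after the genes above (17.9, 16.2 and 17.1 CPM in Het, 15.5, 12.6 and 10.2 CPM in Homo; log2 fold change −0.41, adjusted p = 0.0781). Named here after its values were seen, it did not pass.

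The same question was put to the P7 count libraries, an age before the onset of hearing. *Adgrb1* measured 32.1, 56.4 and 36 CPM in Het and 25.9, 21.6 and 31.2 CPM in Homo. The groups lay apart, and the log2 fold change of −0.64 was close in size to that at P22, but with an SE of 0.227 it did not pass (adjusted p = 0.894, edgeR's quasi-likelihood test). Replicate 6 of Het had the highest level of *Adgrb1* and also the highest summed neuron markers (3896 CPM against 1597 to 2564 CPM in the other 5 libraries). Without that library the difference was −0.36.

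*Celsr3*, a cadherin that guides axons, had the smallest p of the members in this set. It measured 14, 13.5 and 11.8 CPM in Het and 20.5, 18.8 and 16.6 CPM in Homo, without overlap (log2 fold change 0.54, SE 0.123, adjusted p = 0.894). *Adgrg1*, or GPR56, a receptor for collagen III and transglutaminase 2, measured 38.5, 47.1 and 38.6 CPM in Het and 48.5, 50.5 and 69.6 CPM in Homo (0.46, SE 0.146, adjusted p = 0.894). Without replicate 7 of Homo, the library with the highest level, the difference of *Adgrg1* was 0.29. *Adgrb2* (63.8, 74.5 and 66.1 CPM in Het, 67.8, 73.7 and 82.8 CPM in Homo) and *Adgrb3* (6.92, 11.4 and 6.27 CPM in Het, 8.53, 9.73 and 13.7 CPM in Homo) overlapped between genotypes, with differences of 0.16 (SE 0.087) and 0.40 (SE 0.264). The difference of *Adgrb2* was 0.09 without replicate 7 of Homo, and that of *Adgrb3* was 0.18 without that library, 0.23 without replicate 7 of Het and 0.71 without replicate 6 of Het.

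None of the 23 members tested at P7 in counts was called, and the background was equally empty, at 0% of 16026 genes. At an unadjusted p under 0.05 there were 3 members of 23, against 4.76% of all genes. The Wald test of DESeq2 called 0 members as well, against 0.318% of all genes (47 higher and 4 lower), and gave *Celsr3* an adjusted p of 0.0567. The 3 members whose genotypes did not overlap, *Adgrb1*, *Adgrg1* and *Celsr3*, compare with 10.8% of all genes tested. The median over the members was 0.00, as over all genes. The brain neuron markers summed to 183 to 204 CPM in Het and 235 to 255 CPM in Homo (12 differences positive, 3 negative, median 0.81). The stria and pigment cell markers summed to 886 to 913 and 699 to 819 CPM (2 positive, 9 negative, median −0.67). The Schwann cell sums overlapped, with 15 of 15 differences negative (median −0.49). The part of cell composition in this set was not tested.

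**Figure D2:**
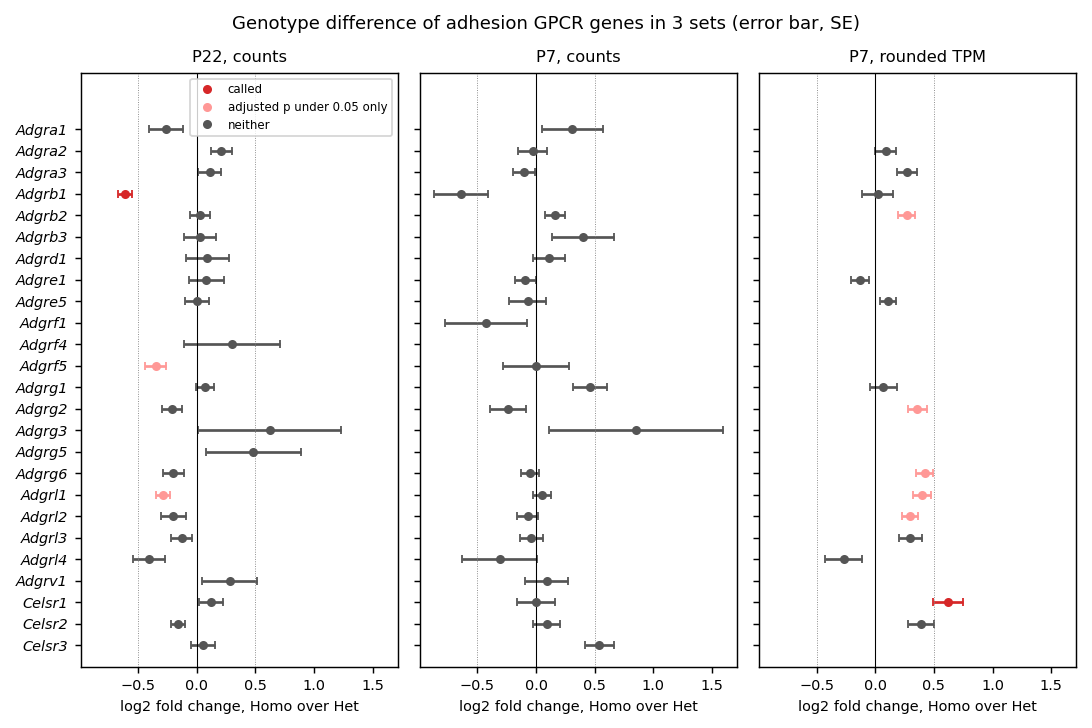
Log2 fold change of Homo over Het (x axis) for the members tested in each of 3 sets, with the SE as error bar and dotted lines at 0.5 in either direction. *Adgrb1* at P22 and *Celsr1* in the rounded TPM set were called; paler points had an adjusted p under 0.05 but a smaller difference.

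In the P7 libraries in rounded TPM, which are already divided by transcript length, *Adgrb1* measured 10, 12, 8 and 7 TPM in Het and 9, 9, 10 and 12 TPM in Homo. The genotypes overlapped fully and the difference was 0.02 on the log2 scale of TPM + 1 (SE 0.13, adjusted p = 0.934, limma). The summed neuron markers also overlapped in this set (2853 to 4297 TPM in Het, 3252 to 4522 TPM in Homo). Marker by marker, however, 16 of the 17 tested had a positive difference and 1 a negative one. Their median was 0.23 beside 0.01 for all genes, and 1 was called higher, against 0.656% of all genes. For *Adgrb1* the difference in TPM is not like for like with that in counts. The paper reports loss of the long isoform in Homo, and values divided by length weigh long and short isoforms differently from counts. The part of this in the difference was not tested. *Adgrb2* measured 20, 20, 18 and 17 TPM in Het and 23, 25, 22 and 29 TPM in Homo (0.27, SE 0.073, adjusted p = 0.0497), and *Adgrb3*, with 4, 4, 3 and 2 TPM in Het and 4, 4, 3 and 6 TPM in Homo, was below the minimum mean of 5 TPM and was not tested.

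*Celsr1*, the core planar polarity cadherin of epithelia, was called higher in Homo in this set. It measured 7, 6, 4 and 6 TPM in Het and 9, 11, 10 and 10 TPM in Homo, with no overlap (log2 fold change 0.62, SE 0.127, adjusted p = 0.0436). It was the only one of 15 members tested to be called, against 0.809% of the 11740 genes tested (0.656% higher). The adjusted p lay close to the threshold and the call was lost without replicate 2, 3 or 4 of either genotype (adjusted p up to 0.123), while the difference stayed between 0.49 and 0.67. In each of these 6 fits 0 of all genes tested were called. In the P7 count libraries *Celsr1* measured 93.1, 71.3 and 87.3 CPM in Het and 65.2, 101 and 82.2 CPM in Homo, a difference of 0.00.

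The adjusted p alone was under 0.05 in 6 of the 15 members, all higher in Homo (*Adgrb2*, *Adgrg2*, *Adgrg6*, *Adgrl1*, *Adgrl2* and *Celsr1*), against 8.16% of all genes. *Adgrg6*, the myelination receptor GPR126, measured 15, 14, 12 and 11 TPM in Het and 18, 20, 18 and 20 TPM in Homo (0.42, SE 0.0732, adjusted p = 0.0436). *Adgrl1* measured 33, 29, 27 and 25 TPM in Het and 35, 45, 41 and 43 TPM in Homo (0.40, SE 0.0782, adjusted p = 0.0436). Genotypes did not overlap in 7 of the 15 members, against 14.8% of all genes, and the median over members was 0.27 beside 0.01 over all genes.

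The genotype difference in this set moved with transcript length. Across the 11348 genes with a length, the genotype difference in the rounded TPM set rose with length (Spearman's rho 0.602 across genes, which are not independent), from a median of −0.257 in the shortest twentieth of genes to 0.221 in the longest. The members tested have long transcripts, with a median of 5760 nt beside 3169.5 nt over all genes, and *Celsr1* has 10879 nt. After removal of the trend on length and GC content, the 6 members named above moved unequally. *Adgrb2* went from 0.27 to 0.04, *Adgrl1* from 0.40 to 0.11, *Celsr1* from 0.62 to 0.30 (adjusted p = 0.199) and *Adgrl2* from 0.30 to 0.18, whereas *Adgrg6* went from 0.42 to 0.31 and *Adgrg2* from 0.36 to 0.35, both with an adjusted p of 0.136, the smallest over all genes in that fit. *Adgrb1* stood at −0.26, and the median of the members was 0.07. None of the 11740 genes was called by limma after this step, so the 0 members called say nothing particular to the family. At an unadjusted p under 0.05 there were 5 of 15 members, against 19.6% of all genes. In the P7 and P22 count sets the rho was 0.06 and −0.221.

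**Figure D3:**
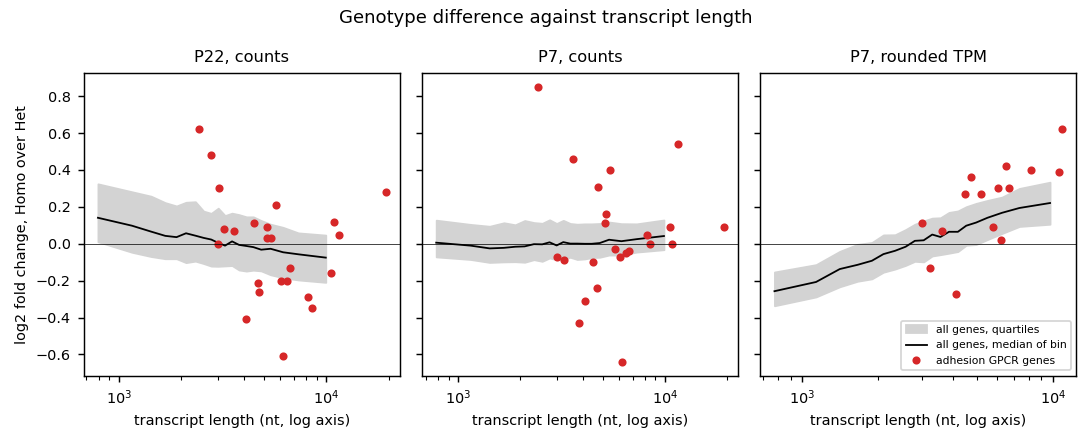
Log2 fold change of Homo over Het against transcript length (log axis) in 3 sets. The line and grey band are the median and quartiles of all genes tested in 20 bins of length, and red points are the members. In the rounded TPM set the line rises from −0.257 to 0.221 and most members lie along or above its right side.

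The next comparison was between the count sets, P22 against P7, in 1 fit over the 12 libraries. Age, replicate batch and table coincide and cannot be told apart. Of 25 members tested, 8 were higher and 8 lower at P22, which is 64% of the members beside 54.6% of the 16314 genes tested (25.9% higher and 28.7% lower), a share near the background. By the adjusted p alone it was 22 of 25, against 80.3%. The median difference was −0.26 for the members and −0.05 for all genes. The members are described by role.

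Within the BAI receptors, *Adgrb1* rose and *Adgrb2* fell with age. *Adgrb1* ranged from 21.6 to 56.4 CPM at P7 (median 31.6) and from 100 to 167 CPM at P22 (median 129), a 3.85-fold rise (log2 fold change 1.95, SE 0.129, adjusted p = 1.67e-08, edgeR). *Adgrb2* ranged from 63.8 to 82.8 CPM at P7 (median 70.7) and from 30.2 to 37.4 CPM at P22 (median 34.5), a 2.08-fold fall (−1.06, SE 0.0684, adjusted p = 1.38e-08). *Adgrb3* ranged from 6.27 to 13.7 CPM at P7 and from 7.45 to 9.66 CPM at P22 and overlapped (−0.18, SE 0.162, adjusted p = 0.317). The share of *Adgrb1* in the summed CPM of the BAI genes went from 20.5% to 39.6% at P7 to 69.9% to 80.2% at P22, without overlap. The rise of *Adgrb1* was 1.96 within Het and 1.95 within Homo libraries.

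The Celsr cadherins split in the same way. *Celsr1* ranged from 65.2 to 101 CPM at P7 (median 84.7) and from 12.9 to 15.9 CPM at P22 (median 14.6), a 5.69-fold fall (log2 fold change −2.51, SE 0.107, adjusted p = 3.87e-10). *Celsr3* ranged from 11.8 to 20.5 CPM at P7 (median 15.3) and from 50.3 to 64.8 CPM at P22 (median 55.1), a 3.61-fold rise (1.85, SE 0.0836, adjusted p = 6.19e-10). These were the largest fall and the second largest rise among the members. *Celsr2*, the remaining paralog, lay between 101 and 131 CPM at P7 and between 123 and 149 CPM at P22 and was not called. The 3 Celsr transcripts are of similar length (10598 to 11571 nt), so their CPM can be set side by side: *Celsr1* made up 30.1% to 44.3% of the Celsr total at P7 and 6.56% to 7.82% at P22, and *Celsr3* 5.52% to 9.45% at P7 and 25.7% to 31.7% at P22.

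**Figure D4:**
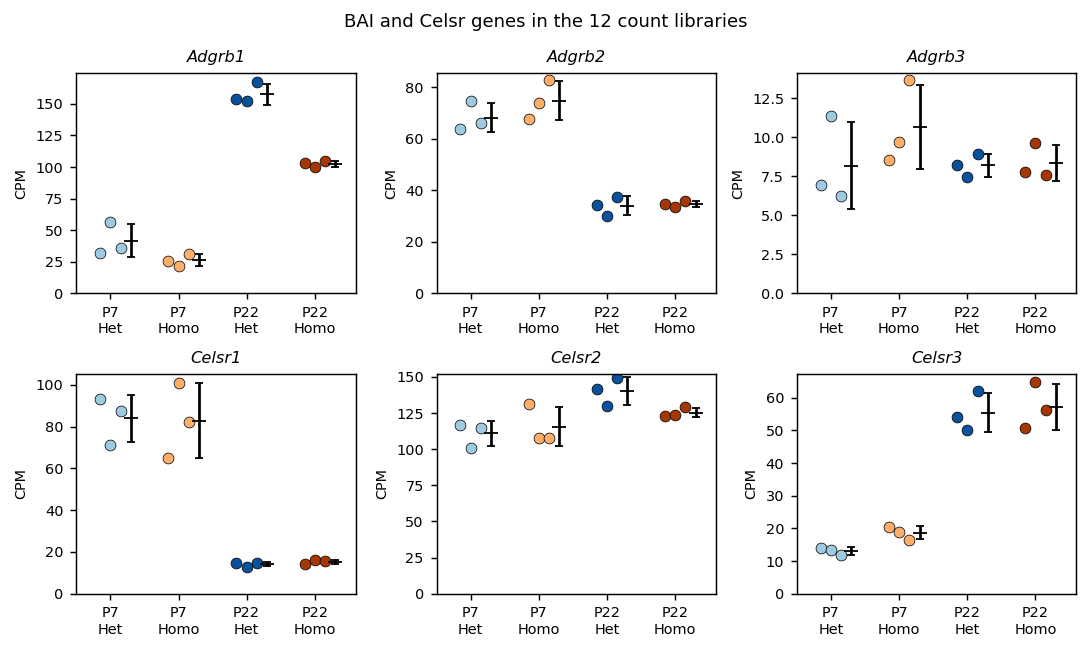
CPM of the 3 BAI genes (top) and the 3 Celsr genes (bottom) in each of the 12 count libraries. Points are libraries, and bars give the group mean and SD (n = 3). *Adgrb1* and *Celsr3* are higher and *Adgrb2* and *Celsr1* lower at P22, while *Adgrb3* overlaps between ages.

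Of the other members with roles in neurons and glia, the latrophilin *Adgrl2* fell from between 73.2 and 95.4 CPM at P7 (median 87.3) to between 46.8 and 66.4 CPM at P22 (median 49.1; log2 fold change −0.74, SE 0.0808, adjusted p = 2.11e-06). *Adgrl1* and *Adgrl3* were not called. *Adgra1*, the GPR123 receptor found mainly in brain, rose from between 2.02 and 3.82 CPM (median 2.72) to between 5.83 and 8.89 CPM (median 7.44; 1.41, SE 0.152, adjusted p = 1.97e-06). *Adgrg6* fell from between 55.4 and 68.6 CPM (median 63.4) to between 15.3 and 20 CPM (median 16.8; −1.88, SE 0.0613, adjusted p = 6.06e-11), while the summed markers of Schwann cells and peripheral myelin went from between 6138 and 17833 CPM to between 24071 and 29142 CPM, with 13 of 15 markers called higher.

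Among receptors of epithelium, mesenchyme and hair cells, *Adgra2* fell from between 121 and 176 CPM (median 155) to between 40.7 and 57 CPM (median 45.7; log2 fold change −1.72, SE 0.091, adjusted p = 2.21e-09) and *Adgra3* from between 192 and 248 CPM (median 219) to between 62.5 and 82.2 CPM (median 73.5; −1.60, SE 0.0773, adjusted p = 1.06e-09). *Adgrv1*, the ankle-link receptor, measured 9.52, 6.59 and 8.75 CPM in Het and 6.85, 9.79 and 9.36 CPM in Homo at P7, and 3.31, 1.82 and 2.96 CPM in Het and 2.98, 3.61 and 3.18 CPM in Homo at P22. Every P22 library lay below every P7 library (−1.51, SE 0.158, adjusted p = 1.45e-06). *Adgrg2*, an orphan receptor best known from the epididymis, rose from between 21.4 and 34 CPM (median 25.5) to between 49.9 and 68.4 CPM (median 58.8; 1.14, SE 0.0986, adjusted p = 2.25e-07).

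*Adgrf5* and *Adgrl4*, receptors of endothelial cells, were called higher at P22, whereas *Adgra2*, which also acts in endothelium, was called lower. *Adgrf5* rose from between 10.4 and 22.2 CPM (median 14.5) to between 27.9 and 43 CPM (median 33.7; log2 fold change 1.12, SE 0.15, adjusted p = 1.54e-05). *Adgrl4* measured 3.82 to 10.9 CPM at P7 (median 8.31) and 10.2 to 17.9 CPM at P22 (median 15.8) and was called higher (0.93, SE 0.185, adjusted p = 0.000479), although the ages overlapped. The endothelial and pericyte markers summed to 460 to 638 CPM at P7 and 508 to 658 CPM at P22. *Adgre1*, which encodes the macrophage surface protein F4/80, fell from between 16.2 and 18.9 CPM (median 17.9) to between 4.99 and 6.74 CPM (median 6.06; −1.56, SE 0.078, adjusted p = 1.35e-09), and the 13 macrophage markers, which do not include it, summed to 312 to 402 CPM at P7 and 175 to 265 CPM at P22. *Adgre5*, the leukocyte receptor CD97, was at −0.39 and was not called.

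The remaining calls rest on few counts. *Adgrg5*, a receptor of immune cells, had 1 to 14 counts at P7 and 9 to 18 at P22 (log2 fold change 1.73, SE 0.47, adjusted p = 0.00436), and *Adgrf4* had 4 to 15 counts at P7 and 9 to 16 at P22 (1.15, SE 0.316, adjusted p = 0.00467). Both overlapped between ages, and the call of *Adgrg5* was lost, through its SE, in 8 of the 12 fits that left out a library. The 9 members not called were *Adgrb3*, *Adgrd1*, *Adgre5*, *Adgrf1*, *Adgrg1*, *Adgrg3*, *Adgrl1*, *Adgrl3* and *Celsr2*. Of these, *Adgre5* shares 23.8% and *Adgrl3* 8.91% of its exon bases with genes on the opposite strand. P7 and P22 libraries did not overlap in 14 of the 25 members, against 62.6% of all genes tested.

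Marker genes also shifted between the ages. The median difference with age was 2.5 for the neuron markers (16 of 18 called higher), −2.21 for the bone markers (9 of 11 called lower), −1.71 for the supporting cell markers (12 of 16 called lower), −1.42 for the fibrocyte and mesenchyme markers (7 of 11 called lower) and −0.94 for the hair cell markers (12 of 17 called lower). *Adgrb1* (1.95) and *Celsr3* (1.85) lay below the median neuron marker. *Celsr1* (−2.51) lay beyond the medians of the falling lists, and *Adgra2* (−1.72, SE 0.091) and *Adgrg6* (−1.88, and −1.56 with the length and GC trend removed) lay near that of the supporting cell markers. The part of cell composition in these differences was not tested.

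**Figure D5:**
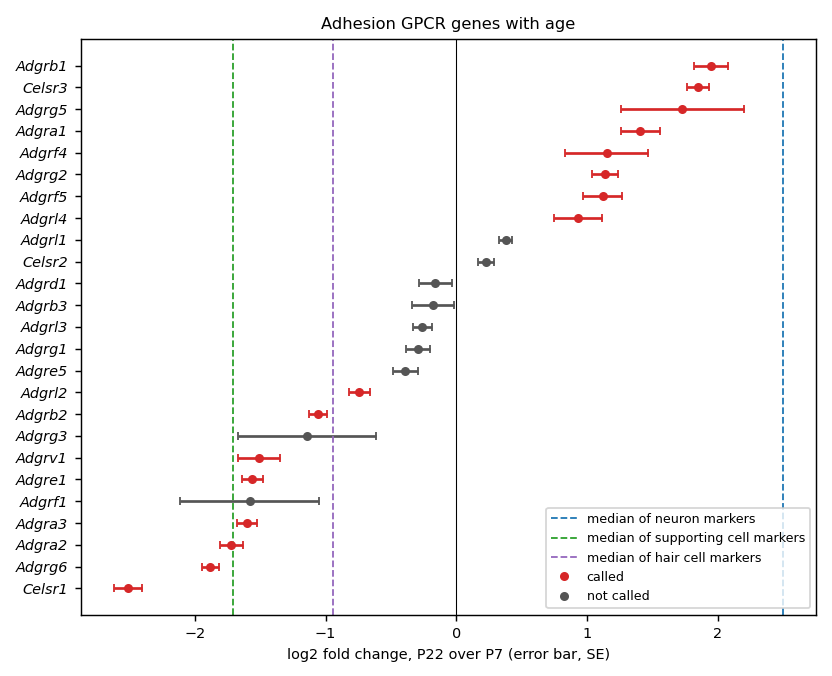
Log2 fold change of P22 over P7 for the 25 members tested, with the SE as error bar, ordered by size. Dashed lines give the median of 3 marker lists: 2.5 for neurons, −1.71 for supporting cells and −0.94 for hair cells. The members span −2.51 (*Celsr1*) to 1.95 (*Adgrb1*).

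Whether the genotype difference itself changed between the count sets was tested as an interaction. None of the 25 members was called, against 0.0306% of the 16314 genes, and 2 members had an unadjusted p under 0.05, against 10.2% of all genes. For *Adgrb1* the genotype difference at P22 minus that at P7 was 0.05 (SE 0.249, adjusted p = 0.967). It was −0.11 for *Adgrb2* (SE 0.136) and −0.35 for *Adgrb3* (SE 0.323). The smallest p values belonged to *Adgrl1* (−0.32, SE 0.0995, adjusted p = 0.305), *Celsr3* (−0.46, SE 0.163, adjusted p = 0.351) and *Adgrg1* (−0.38, SE 0.183, adjusted p = 0.504). DESeq2 called 0 members as well, against 0.754% of all genes (33 higher and 90 lower).

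The genes that work with these receptors were followed in 8 lists of 80 ligands, co-receptors, scaffolds, G alpha subunits and arrestins. With genotype at P22, 4 of the 76 tested were called (5.26%, against 3.15% of all genes). *Rtn4r*, the Nogo receptor and a BAI1 ligand, measured 14.6, 15.9 and 16.5 CPM in Het and 11.1, 9.23 and 9.54 CPM in Homo (log2 fold change −0.65, SE 0.108, adjusted p = 0.0056). *Nrxn3*, a neurexin that binds latrophilins, measured 5.43, 3.99 and 4.84 CPM in Het and 2.82, 2.23 and 2.71 CPM in Homo (−0.87, SE 0.19, adjusted p = 0.0162). *Cd55*, the complement regulator bound by *Adgre5*, measured 13.5, 12.4 and 13.9 CPM in Het and 9.25, 7.51 and 9.82 CPM in Homo (−0.58, SE 0.125, adjusted p = 0.0162). *C1ql1*, a ligand of the *Adgrb3* receptor, was the one called higher, with 6.26, 7.95 and 6.51 CPM in Het and 11.5, 8.49 and 10.1 CPM in Homo (0.54, SE 0.149, adjusted p = 0.0389). In all 4 the genotypes lay apart. Leaving out 1 library kept the call of *Rtn4r* in all 6 fits. The calls of *Nrxn3* and *Cd55* were lost without replicate 1 or 3 of Het or replicate 2 of Homo (−0.77 to −0.86 and −0.46 to −0.56), and that of *C1ql1* without replicate 1 or 3 of either genotype (0.44 to 0.54). The call of *C1ql1* was also lost with the replicate number as a block (0.54, adjusted p = 0.0711). Scaled to the neuron markers, 7 of 76 partners were called higher and 1 lower, against 11.1% and 0.382% of all genes under this scaling. There *Nrxn3* stayed called lower (−0.63) and *C1ql1* higher (0.78), while *Rtn4r* (−0.41) and *Cd55* (−0.33) were not called. Scaled to the hair cell markers, 33 of 76 partners were called lower and 0 higher, against 32% and 0.382% of all genes. Under that scaling *C1ql1* was not called (0.11, adjusted p = 0.62, edgeR), while *Nrxn3*, *Rtn4r* and *Cd55* were called lower.

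At P7, 0 of 78 partner genes were called in counts. In rounded TPM, 7 of 67 were called, all higher in Homo (10.4%, against 0.809% of all genes): the basement membrane genes *Col4a1* (0.63), *Col4a2* (0.65), *Lama2* (0.59) and *Lamb1* (0.57), whose products bind GPR126 or lie in the same matrix, the latrophilin partners *Tenm3* (0.60) and *Nrxn2* (0.52), and the scaffold gene *Shank1* (0.59). After removal of the trend on length and GC content these differences were 0.39, 0.39, 0.38, 0.40, 0.38, 0.23 and 0.26 in the same order, and neither they nor any other gene of the table was called.

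With age, 20 of the 78 partner genes tested were higher and 29 lower at P22 (62.8%, against 54.6% of all genes). Of 19 BAI partners, 8 rose and 2 fell. The Nogo receptor family member *Rtn4rl2* (2.65) and the synaptic ligand *C1ql3* (2.27) rose most, while *C1ql2* (−2.19) and *Dock1* (−0.60), a partner of ELMO in engulfment, fell. Of 13 latrophilin partners 3 rose, led by *Shank1* (1.99) and *Nrxn2* (1.23), and 8 fell, led by the teneurin *Tenm1* (−2.73) and *Nrxn3* (−2.55). All 4 teneurins fell.

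Of 11 planar polarity genes that act with the Celsr cadherins, 6 fell and 0 rose. *Ankrd6* (−2.66) and *Ptk7* (−2.29) fell most. The same direction held for all 4 genes of the GPR124 list, led by *Wnt7a* (−1.66) and *Reck* (−1.50), and for 7 of 9 matrix ligands, led by *Col3a1* (−3.24) and *Lamc1* (−1.42), whereas *Prnp* (1.86), whose prion protein binds GPR126, rose. Among the ligands of the ADGRE, ADGRD and ADGRF receptors, *Thy1* (3.52), which is also a neuron marker, and *Cd55* (0.83) rose. None of the ankle-link genes *Whrn*, *Pdzd7* and *Vezt* was called. Of 15 genes for G alpha subunits and arrestins, 6 rose, led by *Gnaz* (1.54) and *Gnal* (1.10), and 2 fell, *Gnai3* (−0.97) and *Gna15* (−0.79). In the interaction test 0 partner genes were called by edgeR.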

How the data were processed

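Libraries were made by poly A enrichment and sequenced as paired-end 150 bp reads. The authors used the nf-core RNA pipeline with mm10 and Salmon; STAR and DESeq2 are also listed in the submitters' processing notes, and versions, annotation and strand setting are not given in the sources used here. For P22, the authors deposited estimated counts (expected counts) made by Salmon, as they did for P7 replicates 5 to 7. For P7 replicates 1 to 4 they deposited a score whose columns sum to 999644 to 999777 and behave as rounded TPM, although described as counts, and whose depth is unknown. The paper's methods describe separate batches of 3 and 4 P7 replicates per genotype.

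Estimated counts were rounded, filtered with filterByExpr, scaled by TMM and tested with edgeR 4.0.16 (quasi-likelihood) in R 4.3.3, with DESeq2 1.42.0 as an alternative. Rounded TPM were TMM-scaled, limited to genes averaging 5 or more, converted to log2(TPM + 1) and tested with limma 3.58.1. P values were Benjamini-Hochberg adjusted over all genes tested. CPM are TMM-scaled over the 12 count libraries. Lengths are from GENCODE M21. Each of the 5 fits was tested on simulated data.

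The members, gene lists and tests were chosen with earlier results of these data known. Values in every library are given for the BAI genes, members called with genotype (or the 3 with the smallest p in a set) and members called with age (ranges for 6 libraries), and partner genes are named when called with genotype or, with age, as the 2 largest changes in each direction of a list. Alternatives covered the test, scaling, filter, pseudocount, threshold, length and GC trends, the replicate number as a block and each library left out. Intervals from 3 or 4 pools cover the spread between pools only. The result of 1 partner gene is not reported here.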

Additional observations from a re-analysis of the deposited data

Results flagged for a closer look

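In the 30 groups of 4 libraries formed by the 15 members tested in rounded TPM, 3 groups held a library that stood apart from the other 3 by Dixon's criterion. *Adgre1* was at 12 TPM in 1 Het library and 13 TPM in the others, and at 11 TPM in 1 Homo library and 13 TPM in the others. *Celsr2* was at 13 TPM in 1 Het library and 11 TPM in the others. Chance flags about 1 in 20 groups, and in values rounded to whole TPM the gaps are 1 or 2 rounding steps between libraries that are otherwise tied.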

How the results depend on the processing

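At P22, 1 member was called in the other alternatives and 3 by the adjusted p alone, 0 when scaled to neuron markers, 10 when scaled to hair cell markers and 1 to 2 with a library left out (2 without Homo replicate 1). Partner genes called at P22 numbered 16 by the adjusted p alone, 1 at an adjusted p under 0.01, 8 when scaled to neuron markers and 33 when scaled to hair cell markers, and at P7 in counts 1 when scaled to hair cell markers. In rounded TPM the members called were 6 by the adjusted p alone, 3 without TMM (which moves the median of all genes by 0.12), 0 at an adjusted p under 0.01, 0 with no minimum, 0 with a mean of at least 1, 0 after removal of the length and GC trend, and 0 to 1 with a library left out; where 0 members were called there, 0 of all genes were. The partner genes called there were 12 by the adjusted p alone, 0 at an adjusted p under 0.01, 0 with no minimum, 0 with a mean of at least 1 and 0 after removal of the trend. With age, 14 to 19 members were called over alternatives, apart from 22 by the adjusted p alone (10 higher, 12 lower); scaling by library totals moved the median of all genes to −0.34 and gave 8 higher and 11 lower. DESeq2 called 2 partner genes in the interaction.

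Same-numbered libraries did not deviate together (correlations of 0.0604, −0.0025 and 0.0507 at P22, 0.0484, −0.0539 and 0.0683 at P7 in counts, and −0.226 to −0.0131 in rounded TPM), so the numbers were not taken as pairing. With the replicate block, 1 member was called at P22 (*Adgrb1*, −0.61, adjusted p = 0.00234), 0 at P7 in counts and 0 in rounded TPM (*Celsr1*, adjusted p = 0.117; 0 partner genes; 0 of all genes). Of the partner genes 3 were called at P22, all lower, and *C1ql1* was not (0.54, adjusted p = 0.0711).

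Changes of sign occurred in differences that were not called. *Adgrb2* at P22 was −0.40 scaled to hair cell markers and −0.05 to 0.11 with a library left out, and *Adgrb3* was −0.41 and −0.08 to 0.09. *Adgrb2* at P7 in counts was −0.03 scaled to hair cell markers. *Adgrb1* in rounded TPM was −0.26 after removal of the trend and −0.07 to 0.11 with a library left out. *Adgrb3* with age was 0.08 after removal of the trend and 0.03 in Het libraries only, and *Adgrb1* in the interaction was −0.24 to 0.20 with a library left out. The cause was not tested. Groups of 3 pools in the count sets and 4 in rounded TPM limit the precision: the median SE of a log2 fold change was 0.0912 at P22, 0.118 at P7 in counts and 0.0823 in rounded TPM.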
